A study of Mus musculus with 18 samples.

Results

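8 genes of sterol metabolism were followed through polysome gradients of mouse embryonic stem cells (ESCs): the synthesis enzymes Hmgcs1, Idi1, Fdft1, Sqle, Lss and Dhcr7, and the regulators Srebf2 and Insig1. They were listed by name, with earlier results of these data known, and are 8 of the 51467 genes in the deposited count table. 7 of the 8 passed the filter on low counts and were tested; Idi1 did not pass.

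Cholesterol is built from acetyl-CoA. The mevalonate arm makes isoprene units, which are joined to squalene, and squalene is then oxidised, closed into lanosterol and trimmed to cholesterol. The genes of these steps are classical targets of SREBP-2, the transcription factor encoded by Srebf2, which stays in the endoplasmic reticulum bound to SCAP and INSIG while sterols are plentiful and is cleaved and sent to the nucleus when they run low. Because sterol supply feeds back on the same proteins, levels of these transcripts are commonly read as a sign of the sterol state of a cell.

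Wild-type (WT) cells were V6.5, a mouse ESC line, and Ddx6 KO cells were derived from V6.5 by CRISPR-Cas9, with a premature stop in Ddx6, which encodes an RNA helicase of the decapping and translational repression machinery. Both genotypes grew in serum with LIF and the kinase inhibitors of 2i medium, and ribosomes were fixed on the mRNA with cycloheximide at 100 ug/ml for 2 min. Each lysate was spread on a sucrose gradient and cut into monosome, low polysome (2 to 4 ribosomes) and high polysome (4 or more ribosomes) fractions, and 3 gradients of each genotype gave 18 libraries. Of the 3 Ddx6 KO gradients, the first came from clone 1 and the others from clone 2. No label says whether the WT gradients came from separate cultures. The fit took the 3 fractions of a gradient as independent libraries. The p-values thus measure the spread between these libraries, not between separate cultures or clones.

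The libraries held 2543617 to 11474550 counts, with the 3 WT monosome libraries the shallowest. Ddx6 itself stood at 143 to 212 CPM (counts scaled to the same total in each library) in the WT libraries and at 9.68 to 82.7 CPM in the Ddx6 KO libraries, without overlap. The higher Ddx6 KO values, 55.3 to 82.7 CPM, were the 3 libraries of clone 1. The reads come from the 3′ end of the transcript, away from the edited exon, and do not read the edit. All 7 ESC markers checked were expressed, with summed levels of 1730 to 3180 CPM in WT and 1670 to 3070 CPM in Ddx6 KO libraries. The 6 feeder fibroblast markers summed to at most 11.1 CPM and the 5 primitive endoderm markers to at most 10.2 CPM in any library. The 4 markers of later epiblast summed to 36.1 to 80.4 CPM in WT and 11.7 to 26.2 CPM in Ddx6 KO. Of the 4, 2 stayed under 1 CPM in every library, 1 of them without a count. The sums thus come almost wholly from the other 2 and do not show a later epiblast population. The part of these markers in the results was not tested.

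RefSeq promoter windows (GRCm38.p6, 250 bases before to 50 after each start) were held for 6 of the 8 genes; Sqle and Fdft1 had none in the table used. The SREBP site was searched as TCACNCCAC and the CCAAT box, bound by the SREBP partner NF-Y, as CCAAT, both on either strand. TCACNCCAC was found in the Hmgcs1 window only among the 6, against 1.44% of the 27025 genes with a window. Of 38 sterol and lipid genes with a window, these 6 and the others listed further below, Hmgcs1 was again the only 1. No excess of this motif is therefore read from these genes. CCAAT was found in at least 1 window of all 6, against 41.1% of genes. The stretches below are shown for Hmgcs1 and Dhcr7, with both motifs in capitals. ATTGG is CCAAT read from the other strand. For Dhcr7 the windows of its other listed starts held neither motif. The Hmgcs1 stretch is chr13:119690154-119690282 and the Dhcr7 stretch, before the most downstream of 3 listed starts, is chr7:143830109-143830189, both on the plus strand.
Hmgcs1: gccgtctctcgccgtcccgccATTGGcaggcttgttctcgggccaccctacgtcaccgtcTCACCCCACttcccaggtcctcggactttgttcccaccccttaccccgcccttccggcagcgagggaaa
Dhcr7: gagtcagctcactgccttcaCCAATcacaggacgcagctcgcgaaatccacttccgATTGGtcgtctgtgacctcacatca
A match describes these letters only, and binding was not measured in this series.

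DDX6 has been studied as a partner of microRNAs, and the main ESC microRNA family shares 1 seed. The mature sequence of a member is shown with its seed, bases 2 to 8, in capitals.
mmu-miR-294-3p: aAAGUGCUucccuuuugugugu
None of the 7 tested genes held the 8-base match to this seed, AGCACTTA, or either 7-base part of it in the 3′ UTR of its longest coding transcript, against 18.6% of the 11632 tested genes with an annotated 3′ UTR. The Dhcr7 3′ UTR was 140 bases and the Sqle 3′ UTR 275 bases long, against a median of 949 bases among those genes.

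As a mean of the 3 fractions, 3 of the 7 genes were called lower in Ddx6 KO cells and 1 higher. Sqle, Dhcr7 and Insig1 fell 1.53-, 1.63- and 1.72-fold and Srebf2 rose 1.52-fold, while Hmgcs1, Fdft1 and Lss did not pass the test. This mean weights the fractions equally, whatever mRNA each holds, and these libraries leave out mRNA outside the 3 fractions. It is thus not the level in the whole cell. Its standard errors and p-values take the 3 fractions of a gradient as independent, though they come from 1 lysate. The enzymes therefore did not move as a block: their mean log2 changes ran from -0.71 for Dhcr7 to 0.15 for Fdft1. Among all 12705 genes tested, 31.5% were called lower and 30.6% higher in the same comparison. The median log2 change of the 7 was -0.18, against -0.02 over all genes. In such bulk libraries, fewer cells expressing a gene and less of its RNA per cell cannot be told apart.

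**Figure D1:**
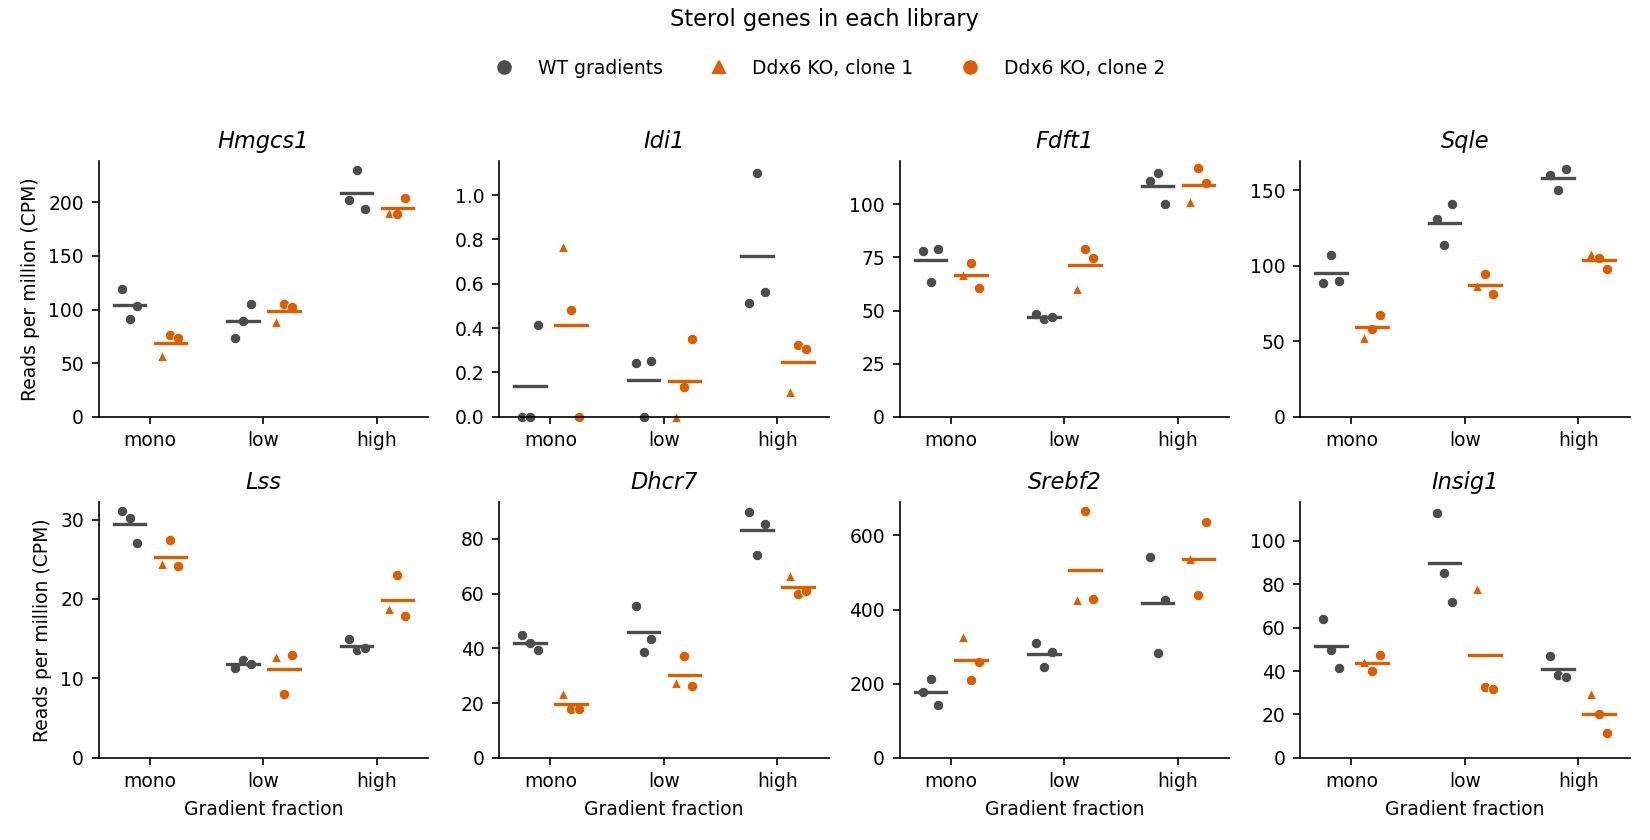
CPM (linear axis from 0, a separate scale per gene) of the 8 genes in the monosome, low and high polysome libraries. Each point is 1 library, grey for WT and orange for Ddx6 KO with a triangle for clone 1, and bars are means of 3. Sqle sits lower in every Ddx6 KO library than in the WT libraries of the same fraction, and Idi1 stays at or below 1.1 CPM throughout.

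The mevalonate arm was represented by Hmgcs1, which condenses acetyl-CoA and acetoacetyl-CoA to HMG-CoA, and Idi1, which interconverts the isoprene units. Hmgcs1 (ENSMUSG00000093930.1, chr13:119690379-119708260, plus strand, GRCm38) stood at 119, 91.5 and 103 CPM in the WT monosome libraries and at 57, 76.4 and 73.5 CPM in the Ddx6 KO ones. All 3 Ddx6 KO values lay below the WT values, a 1.51-fold fall (log2 change -0.59, SE 0.15, adjusted p = 0.00397 by limma-voom). In the polysomes the genotypes overlapped: low polysome libraries held 73.3, 89.1 and 105 CPM in WT and 88.5, 105 and 102 CPM in Ddx6 KO, and high polysome libraries 202, 230 and 194 CPM against 190, 189 and 204 CPM. The polysomal log2 changes were 0.16 (95% interval -0.14 to 0.46) and -0.10 (-0.39 to 0.19). As a mean of the fractions the change was -0.18 (SE 0.08, adjusted p = 0.072), which passed the threshold with DESeq2 (-0.22), with DESeq2 size factors (-0.21) and without WT gradient 1 (-0.22).

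Idi1 (ENSMUSG00000058258.14, chr13:8885501-8892451, plus strand) had 0 to 11 counts per library, or 0 to 1.1 CPM. The WT values were 0, 0 and 0.414 CPM in monosomes, 0.245, 0 and 0.254 CPM in low polysomes and 0.513, 1.1 and 0.565 CPM in high polysomes. The Ddx6 KO values were 0.766, 0.483 and 0 CPM in monosomes, 0, 0.136 and 0.351 CPM in low polysomes and 0.111, 0.326 and 0.307 CPM in high polysomes. No difference between the genotypes was tested at this depth. Its annotated exons share 323 bases with Gm48574 on the opposite strand, and counting was stranded; why so few reads were assigned to Idi1 was not tested.

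Squalene is made by Fdft1, squalene synthase, and oxidised by Sqle, squalene epoxidase, a rate-limiting step of the sterol branch. Sqle (ENSMUSG00000022351.14, chr15:59315077-59331192, plus strand) was lower in Ddx6 KO cells in every fraction. Monosome libraries held 88.8, 107 and 89.9 CPM in WT and 52.3, 58.3 and 67.5 CPM in Ddx6 KO. Low polysome libraries held 131, 114 and 141 CPM against 86.4, 94.8 and 81.2 CPM. High polysome libraries held 160, 150 and 164 CPM against 108, 105 and 98.1 CPM. The groups were separate in each fraction, and both clones lay on the same side of WT. The log2 changes were -0.69, -0.56 and -0.61 in monosomes, low and high polysomes, with SE of 0.13, 0.12 and 0.12 and adjusted p of 0.000312, 0.000846 and 0.000343. The mean of the fractions was -0.62 (SE 0.07, adjusted p = 2.51e-07).

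Fdft1 (ENSMUSG00000021273.9, chr14:63145150-63179578, minus strand), the enzyme directly before Sqle, followed another course. Its monosome levels overlapped, with 78.1, 63.7 and 79.1 CPM in WT and 66.9, 72.4 and 60.5 CPM in Ddx6 KO. Its high polysome levels overlapped too, with 111, 115 and 100 CPM against 101, 117 and 110 CPM (log2 change 0.01, 95% interval -0.25 to 0.26). In low polysomes WT libraries held 48.6, 45.9 and 46.9 CPM and Ddx6 KO libraries 60.4, 79.2 and 74.8 CPM, a 1.51-fold rise without overlap (log2 change 0.59, SE 0.13, adjusted p = 0.000933). The mean change of 0.15 (SE 0.07, adjusted p = 0.0802) passed the threshold, at 0.21, only without the gradient of clone 1, among the gradients left out in turn. The 3′ ends of Fdft1 and Ctsb lie on opposite strands and share 767 annotated exon bases, with counting stranded.

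Lss, lanosterol synthase, closes the sterol ring system. Lss (ENSMUSG00000033105.12, chr10:76531588-76557138, plus strand) held 31.1, 30.2 and 27.1 CPM in WT monosomes and 24.4, 27.4 and 24.1 CPM in Ddx6 KO monosomes, and 11.3, 12.3 and 11.8 CPM against 12.7, 8.05 and 12.9 CPM in low polysomes. In high polysomes WT libraries held 14.9, 13.6 and 13.8 CPM and Ddx6 KO libraries 18.8, 23 and 17.8 CPM. Only the high polysome groups were separate and passed the test among the 3 fractions (log2 change 0.49, SE 0.16, adjusted p = 0.0166). That call was lost without WT gradient 1 (0.46), 2 (0.46) or 3 (0.47), without Ddx6 KO gradient 2 (0.38), with no filter on low counts (0.47) and with libraries thinned to equal depth (0.28). Lss shares 381 exon bases with 4930483K19Rik on the opposite strand.

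Dhcr7 reduces 7-dehydrocholesterol to cholesterol, the last step of 1 of the branches of the pathway. Dhcr7 (ENSMUSG00000058454.15, chr7:143823145-143848410, plus strand) showed the largest fall in monosomes among the 7 genes, from 45, 42 and 39.4 CPM in WT to 23.3, 17.9 and 18 CPM in Ddx6 KO, or 2.14-fold (log2 change -1.09, SE 0.18, adjusted p = 8.69e-05). Low polysome libraries held 55.4, 38.6 and 43.6 CPM in WT and 27.4, 37.1 and 26.2 CPM in Ddx6 KO, a 1.53-fold fall (adjusted p = 0.00314). High polysome libraries held 90, 74.2 and 85.3 CPM against 66.5, 60 and 60.9 CPM, a 1.33-fold fall (adjusted p = 0.0235). No Ddx6 KO library reached the lowest WT library of its fraction. The high polysome call was lost without WT gradient 3 (log2 change -0.39), Ddx6 KO gradient 2 (-0.38) or 3 (-0.41). The mean of the fractions was -0.71 (SE 0.09, adjusted p = 1.48e-06).

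**Figure D2:**
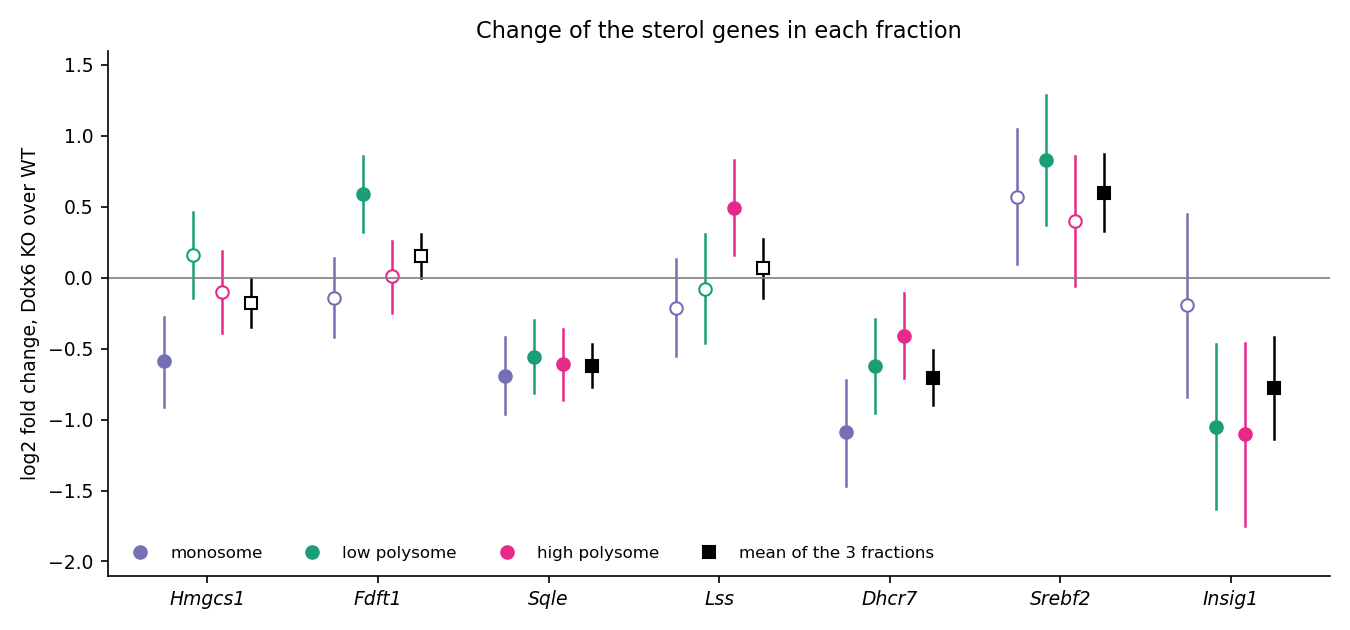
log2 fold change of Ddx6 KO over WT for the 7 tested genes in each fraction and as the mean of the 3, with 95% intervals from limma-voom. Filled symbols passed an adjusted p of 0.05. Sqle and Dhcr7 are below 0 in all fractions, Srebf2 is above 0 in all, and Insig1 is called lower in both polysome fractions and in the mean but not in monosomes.

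Srebf2 (ENSMUSG00000022463.7, chr15:82147181-82205379, plus strand), which encodes SREBP-2, rose while Sqle, Dhcr7 and Insig1 fell. Monosome libraries held 178, 212 and 143 CPM in WT and 327, 209 and 259 CPM in Ddx6 KO, with 1 Ddx6 KO library inside the WT range. Low polysome libraries held 309, 245 and 285 CPM against 425, 665 and 429 CPM, without overlap. High polysome libraries held 543, 284 and 425 CPM against 537, 438 and 635 CPM and overlapped. The low polysome change passed the test at 1.78-fold (log2 change 0.83, SE 0.22, adjusted p = 0.00431). The monosome change of 0.57 (SE 0.23) had an adjusted p of 0.0532 and passed the threshold with edgeR (0.58), DESeq2 (0.56), library size alone (0.64), only the groups compared (0.59) or equal depth (0.57), and without WT gradient 2 (0.71) or Ddx6 KO gradient 2 (0.74). The high polysome change of 0.40 (SE 0.22, adjusted p = 0.144) passed it without Ddx6 KO gradient 2 (0.54). The mean of the fractions was 0.60 (SE 0.13, adjusted p = 0.000423).

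Insig1 (ENSMUSG00000045294.11, chr5:28071363-28078662, plus strand) encodes the sterol-sensing anchor that holds SCAP and SREBP in the endoplasmic reticulum, and is itself an SREBP target. In monosomes the genotypes overlapped, with 64.1, 49.5 and 41.6 CPM in WT and 44.4, 39.8 and 47.2 CPM in Ddx6 KO. Low polysome libraries held 113, 85.2 and 71.8 CPM in WT and 77.6, 32.6 and 31.6 CPM in Ddx6 KO. The clone 1 library lay inside the WT range, while both clone 2 libraries lay below it. High polysome libraries held 47.1, 38 and 37.4 CPM against 29.2, 20.4 and 11.4 CPM, without overlap. The low and high polysome falls were 2.07-fold (log2 change -1.05, SE 0.28, adjusted p = 0.00399) and 2.15-fold (-1.10, SE 0.31, adjusted p = 0.00658). The high polysome call was lost without Ddx6 KO gradient 3 (-0.75). With clone 1 at a single gradient, a difference between the clones was not tested.

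By fraction, 3 of 7 genes were called lower in monosomes (Hmgcs1, Sqle, Dhcr7; background 20.1% of all tested genes) and 0 higher (background 18.6%; 1 higher at an unadjusted p under 0.05, Srebf2, which edgeR and DESeq2 also called). In low polysomes 3 were lower (Sqle, Dhcr7, Insig1; background 24.3%) and 2 higher (Fdft1, Srebf2; background 23.4%). In high polysomes 3 were lower (Sqle, Dhcr7, Insig1; background 21.1%) and 1 higher (Lss; background 25.3%). The fractions share no libraries but come from the same gradients. CPM is a relative level within a fraction, so a lower level cannot be told apart from more of the other mRNAs there.

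The second question was where on the gradient these mRNAs sat. The study calls the ratio of high polysome to monosome reads the translation level. In WT cells this ratio was called above 0 on the log2 scale for 5 of the 7 genes and called below 0 for Lss. All 12705 genes were called higher in high polysomes in 28.9% of cases and lower in 32.2%, and the median log2 ratio of the 7 genes was 0.73 against -0.02 for all genes. Srebf2 (1.2, SE 0.23), Hmgcs1 (1.01, SE 0.15), Dhcr7 (0.98, SE 0.16), Sqle (0.73, SE 0.13) and Fdft1 (0.57, SE 0.13) were enriched in WT high polysomes, with adjusted p from 5.33e-06 to 0.000875. The 95% intervals of neighbours in this order overlapped, so it is not resolved. Lss was depleted 2.08-fold (log2 ratio -1.06, SE 0.17, adjusted p = 2.03e-05), and Insig1 did not pass (-0.30, 95% interval -0.94 to 0.34).

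Per gradient, the WT log2 ratios of high polysome to monosome were -1.04, -1.12 and -0.96 for Lss, and 0.99, 0.81 and 1.11 for Dhcr7. These values were tight within the genotype. The Srebf2 ratios were 1.61, 0.42 and 1.57, the widest spread of the 7 in WT. In Ddx6 KO cells Lss gave -0.36, -0.25 and -0.43 and Dhcr7 gave 1.49, 1.72 and 1.73, in both cases above every WT gradient. Insig1 went from -0.44, -0.38 and -0.15 in WT to -0.60, -0.94 and -2.01 in Ddx6 KO, lower in all 3 gradients. These ratios come from the libraries of the interaction tests below and are no separate support for them. How many of all genes separate in this way was not counted, here or for the libraries above.

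In Ddx6 KO cells 5 of 7 genes were again higher in high polysomes than in monosomes (background 35.0%) and 2 were lower (background 33.6%). Dhcr7 had the highest log2 ratio of the 7 at 1.67 (SE 0.16), then Hmgcs1 at 1.5 (SE 0.14), Srebf2 at 1.02 (SE 0.22), Sqle at 0.81 (SE 0.12) and Fdft1 at 0.71 (SE 0.13), with adjusted p from 1.38e-08 to 0.000368; the intervals of neighbours in this order overlapped. Insig1 was depleted 2.32-fold (-1.21, SE 0.31, adjusted p = 0.00182), a call lost without Ddx6 KO gradient 3 (-0.76). Lss was at -0.36 (SE 0.15, adjusted p = 0.0439). With the gradient as a block, which pairs the fractions of 1 lysate, the Lss adjusted p was 0.0572. The Lss call was also lost with edgeR (-0.35), with no filter on low counts (-0.34), and without WT gradient 2 (-0.37) or 3 (-0.37) or Ddx6 KO gradient 1 (-0.35) or 3 (-0.29).

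**Figure D3:**
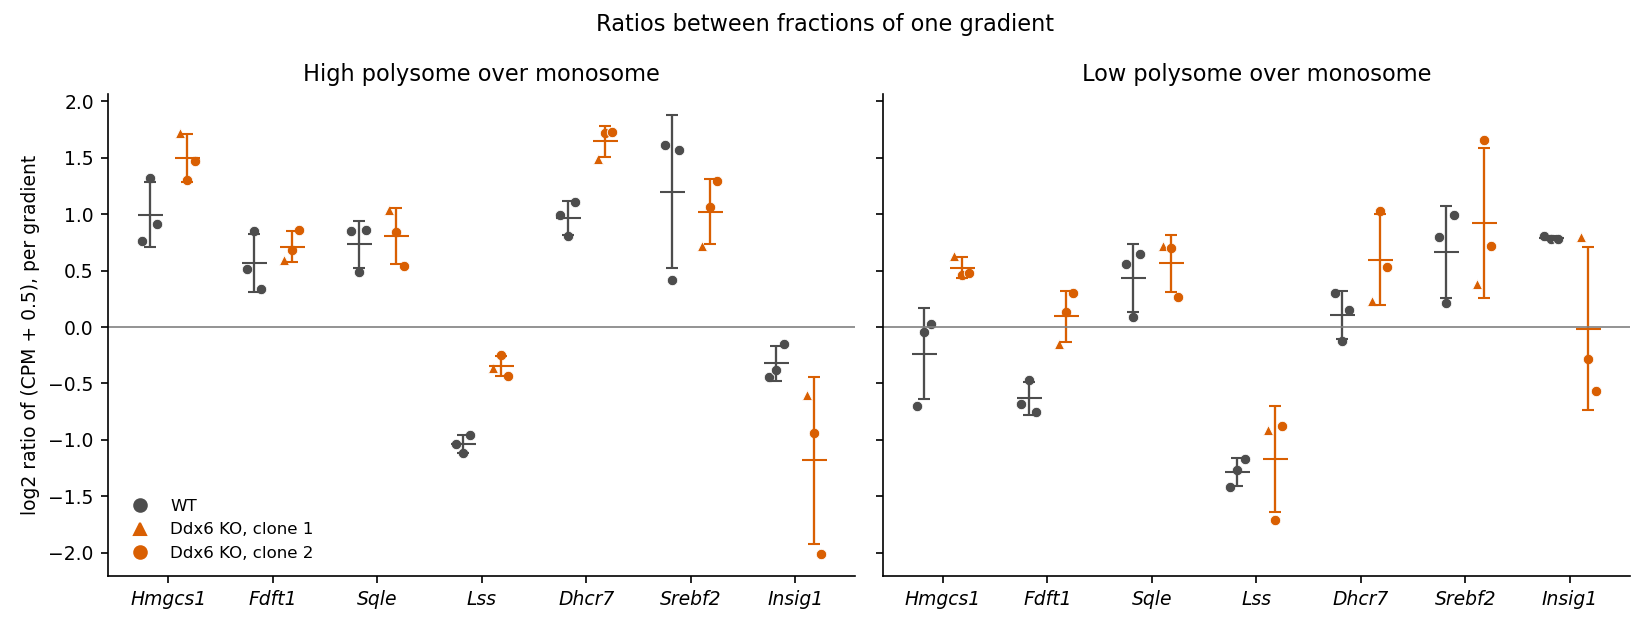
log2 ratios of high polysome to monosome (left) and low polysome to monosome (right) within each gradient, from CPM plus 0.5. Points are gradients, with triangles for clone 1, and bars are mean ± SD of 3. In Ddx6 KO cells Lss and Dhcr7 are higher and Insig1 is lower in all 3 gradients at left, and Hmgcs1 and Fdft1 are higher in all 3 gradients at right. The share of all genes that separate so was not counted.

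Low polysomes separated the genes differently. In WT cells Insig1 (log2 ratio 0.83, SE 0.30), Srebf2 (0.67, SE 0.23) and Sqle (0.43, SE 0.13) were higher in low polysomes than in monosomes (3 of 7, background 20.4%), with adjusted p of 0.0303, 0.023 and 0.00965. Fdft1 (-0.63, SE 0.14) and Lss (-1.31, SE 0.18) were lower (2 of 7, background 22.8%), with adjusted p of 0.000913 and 8.37e-06. The Insig1 call was lost without WT gradient 1 (0.78), 2 (0.84) or 3 (0.82) and with DESeq2 (0.80). The Srebf2 and Sqle calls were lost without WT gradient 1 (0.60 and 0.37) or 3 (0.49 and 0.31), and that of Sqle also at equal depth (0.35).

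In Ddx6 KO cells 4 of 7 genes were higher in low polysomes than in monosomes (background 20.4%): Srebf2 (0.92), Dhcr7 (0.60), Sqle (0.56) and Hmgcs1 (0.52), with adjusted p from 0.00131 to 0.00891. Lss stayed lower at -1.18 (1 of 7, background 20.8%). Without Ddx6 KO gradient 2 the calls of Dhcr7 (0.38) and Srebf2 (0.55) were lost. Insig1 was at -0.03 (95% interval -0.64 to 0.57), and its gradients gave 0.80 for clone 1 and -0.28 and -0.57 for clone 2, against 0.81, 0.78 and 0.78 in WT.

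The effect of the knockout on these ratios was tested as an interaction. For the translation level, 2 of 7 genes were called higher (background 10.7%) and 0 lower (background 7.09%; also 0 at an unadjusted p under 0.05 and 0 by edgeR or DESeq2). Lss rose by 0.70 (SE 0.23, adjusted p = 0.0391) and Dhcr7 by 0.69 (SE 0.23, adjusted p = 0.0451) on the log2 scale. Both were close to the threshold: with gradient as a block the adjusted p was 0.0491 for Lss and 0.0286 for Dhcr7. The Lss call was lost when any of the 6 gradients was left out (0.63 to 0.75), and it passed the threshold in 4 of 15 alternatives. The Lss value fell to 0.45 at equal depth (adjusted p = 0.348) and to 0.45 with the trend on coding length removed (adjusted p = 0.254). The Dhcr7 call was kept without Ddx6 KO gradient 1 and lost when any of the other 5 was left out (0.60 to 0.76), and it passed in 5 of 15.

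For the other genes the translation level changed by 0.49 for Hmgcs1 (95% interval 0.07 to 0.92, adjusted p = 0.0973), 0.14 for Fdft1 (-0.24 to 0.52), 0.08 for Sqle (-0.29 to 0.45) and -0.18 for Srebf2 (-0.84 to 0.49). Sqle, lower in Ddx6 KO in each fraction, thus had an interval that admits a change of the ratio from -0.29 to 0.45. Insig1 was at -0.91 (SE 0.44, adjusted p = 0.153) and passed the threshold without the clone 1 gradient (-1.21) and with only the groups compared (-0.92).

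Between low polysome and monosome, Hmgcs1 rose by 0.75 (SE 0.21, adjusted p = 0.0438) and Fdft1 by 0.73 (SE 0.19, adjusted p = 0.0326), 2 of 7 against a background of 2.31%. No gene was called lower (0 of 7, background 2.39%; also 0 at an unadjusted p under 0.05 and 0 by edgeR or DESeq2). In the same libraries Hmgcs1 ratios were -0.70, -0.04 and 0.03 in WT and 0.63, 0.46 and 0.48 in Ddx6 KO. Fdft1 ratios were -0.68, -0.47 and -0.75 in WT and -0.15, 0.13 and 0.30 in Ddx6 KO. Neither gene overlapped, and the share of all genes without overlap was not counted. With gradient as a block both calls held (adjusted p = 0.0406 and 0.025). The Hmgcs1 call held only without WT gradient 3 among the 6 left out in turn (others 0.52 to 0.85), and the Fdft1 call only without Ddx6 KO gradient 1 (others 0.60 to 0.81). They passed in 5 and 6 of 15 alternatives. Without the clone 1 gradient Insig1 also passed, at -1.26.

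Between high and low polysomes 0 of 7 genes changed (background 3.39% higher and 1.03% lower). At an unadjusted p under 0.05 there was 1 higher (Lss, 0.57) and 1 lower (Fdft1, -0.58, adjusted p = 0.064). DESeq2 called Fdft1 lower (-0.65) and edgeR called none of the 7.

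Around these genes, 51 more genes of sterol and lipid metabolism were listed and 50 were tested. In the mean of the fractions 17 of the 50 rose (background 30.6% of all tested genes) and 12 fell (background 31.5%), with a median log2 change of 0.06 against -0.02 for all genes. The number that rose was thus near the background, and the number that fell somewhat under it. Steep rises were those of Soat1 (1.38), which esterifies cholesterol for storage, Ebp (1.16), a sterol isomerase of the late pathway, and Mylip (1.03), a ubiquitin ligase. Falls included Fdps (-0.71), farnesyl diphosphate synthase, Scd1 (-0.68), a fatty acid desaturase, Pmvk (-0.39), phosphomevalonate kinase, and Acat2 (-0.38), which supplies acetoacetyl-CoA. Among these named genes, adjusted p ran from 2.05e-10 for Ebp to 0.00272 for Fdps.

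By step, and against the same backgrounds of 30.6% higher and 31.5% lower, the 6 other tested mevalonate genes had 4 that fell and 0 that rose, and the 9 other genes from squalene to cholesterol had 3 that rose and 1 that fell. Among the 5 other regulators of SREBP, 2 rose and 1 fell. Of 7 genes that act in the turnover of pathway enzymes, 5 rose and 0 fell, with a median log2 change of 0.67 against -0.02 for all genes. These lists are short and were not tested as sets.

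**Figure D4:**
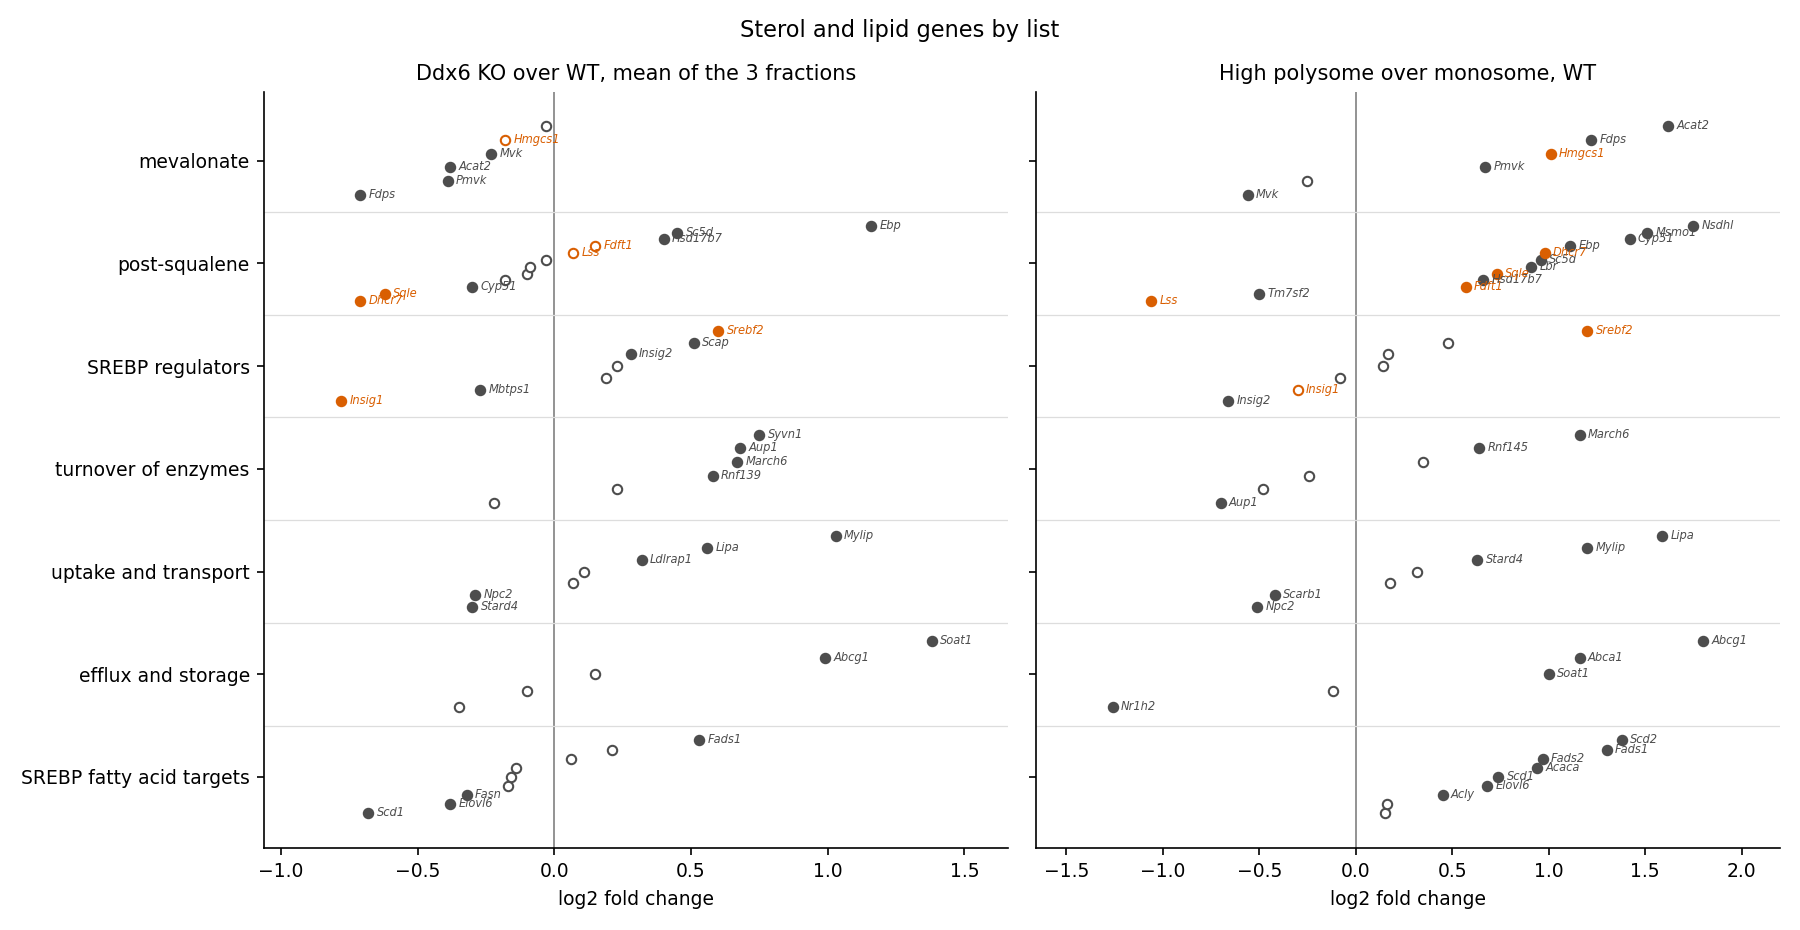
log2 fold change of tested genes in 7 lists, for Ddx6 KO over WT as a mean of 3 fractions (left) and for high polysome over monosome in WT (right). Orange marks the 7 genes described here and grey 45 others, with symbols filled where the adjusted p was under 0.05; filled and orange points are named. The late pathway lies to the right of 0 at right apart from Lss and Tm7sf2, and the turnover list lies mostly to the right at left.

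In WT cells 28 of the 50 other genes were higher in high polysomes than in monosomes (background 28.9%) and 7 lower (background 32.2%), with a median log2 ratio of 0.66 against -0.02 for all genes. The genes called higher included 8 of the 9 other genes from squalene to cholesterol. High ratios were those of Abcg1 (1.80), a sterol exporter, Nsdhl (1.75), a late pathway enzyme, Acat2 (1.62) and Lipa (1.59), the lysosomal lipase. The lowest were of Nr1h2 (-1.26), a sterol-sensing nuclear receptor, Aup1 (-0.70), Insig2 (-0.66), the paralog of Insig1, Mvk (-0.56) and Npc2 (-0.51). Lss, at -1.06, was thus 1 of 2 late pathway genes depleted from WT high polysomes. In Ddx6 KO cells 31 of the 50 were higher (background 35.0%) and 11 lower (background 33.6%).

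The translation level of 7 of the 50 rose in Ddx6 KO cells (background 10.7%) and that of 5 fell (background 7.09%), counts near the background. Npc1 (0.97), which exports cholesterol from lysosomes, March6 (0.90), a ubiquitin ligase for squalene epoxidase, and Acly (0.84), which makes cytosolic acetyl-CoA, were among the rises. Insig2 (-0.87), Rnf145 (-0.83), Scap (-0.55), the SREBP escort, and Mbtps1 (-0.51), the protease that first cleaves SREBP, were among the falls. Adjusted p of these 7 genes ran from 0.00826 for Acly to 0.0495 for Insig2. Of the 5 other SREBP regulators, 3 fell (background 7.09%) and 0 rose (background 10.7%), with a median of -0.51 against 0.02 for all genes. Of these 7 named calls, 0 held under every gradient left out in turn. With the trend on coding length removed, the number that rose went from 7 to 2 and the number that fell from 5 to 4.

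Across the 18 libraries the 7 tested genes formed no single pattern. Sqle and Dhcr7 were the closest pair (Pearson r of log2 CPM 0.873), followed by Hmgcs1 with Dhcr7 (0.831) and Fdft1 with Hmgcs1 (0.829). Fdft1 and Insig1 ran opposite (-0.77). Lss and Insig1 had no close neighbour among the 7, with highest values of 0.151 (to Fdft1) and 0.119 (to Sqle). The 5 genes most like the mean of the 7 were Bud13 (0.972), Pdlim1 (0.957), Nup62 (0.956), Chd1l (0.954) and Psmb1 (0.954), by Pearson r over the same 18 libraries. These libraries differ in fraction and genotype and share gradients, so the values describe the pattern and carry no test.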

How the data were processed

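Polysome fractions of WT and Ddx6 KO ESCs were measured by QuantSeq 3′ end sequencing. The authors trimmed reads with cutadapt 1.14, mapped them to mm10 with STAR 2.5.3a, keeping unique hits, and deposited whole-number counts per gene from featureCounts 1.5.3, counted by strand on Gencode vM14 with 92 spike-in rows, which were left out here (28 to 169 counts per library). 1 read marks 1 transcript end, so CPM was not divided by length. Totals were 2543617 to 11474550 counts, and their number sets the counting precision.

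Gene positions came from Gencode M21 (GRCm38), which matched 51274 of the 51467 gene IDs. Genes with at least 3 CPM in at least 3 libraries (12705, with 99.6% of counts) were fitted with limma 3.58.1 (voom, TMM, 6 group means over 18 libraries; R 4.3.3), and p-values were Benjamini-Hochberg adjusted over all of them within each of 11 comparisons, with calls at adjusted p under 0.05. Ratios per gradient used CPM plus 0.5. edgeR 4.0.16 (quasi-likelihood), DESeq2 1.42.0, other scalings, filters, thinning to 2543617 counts, leaving out each gradient, a gradient block and a coding length trend were alternatives. The steps were tested on simulated data.

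The fractions of 1 gradient number come from 1 lysate and are paired by design, though their deviations from the group means correlated weakly (-0.18 to 0.48); WT and Ddx6 KO share only a number. The text names the 8 genes, up to 5 list genes per comparison and direction with the largest change past the threshold (some of them are not reported here), the 5 genes most like the mean of the 7 tested, and Ddx6. Genes and lists were chosen with earlier results of these data known.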

Additional observations from a re-analysis of the deposited data

Results flagged for a closer look

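By the interaction test of limma-voom, 2 of the 7 tested sterol genes were called higher for high polysomes against monosomes (background 10.7%). For low polysomes against monosomes 2 others were called higher (background 2.31%). In both comparisons 0 were called lower (background 7.09% and 2.39%). Between high and low polysomes 0 of 7 were called (background 3.39% higher and 1.03% lower). The log2 change from WT to Ddx6 KO was larger in high polysomes than in monosomes by 0.70 for Lss and 0.69 for Dhcr7, and larger in low polysomes than in monosomes by 0.75 for Hmgcs1 and 0.73 for Fdft1. With the 6 gradients left out in turn, the call held in 0 of 6 for Lss and in 1 of 6 each for Dhcr7, Hmgcs1 and Fdft1.

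Among the other listed genes the difference between high polysomes and monosomes was 0.97 for Npc1, 0.90 for March6 and 0.84 for Acly, and -0.87 for Insig2, -0.83 for Rnf145, -0.55 for Scap and -0.51 for Mbtps1. Between low polysomes and monosomes it was 0.55 for Scd2 (adjusted p = 0.0483 by limma-voom). Between high and low polysomes it was 0.97 for Fasn, 0.90 for Acly and -0.56 for Fads1. Their adjusted p by limma-voom were 0.0414, 0.0133 and 0.0474. The Fads1 call was lost with the gradient as a block (adjusted p = 0.0612). Other settings also removed calls in these 2 comparisons, as counted below. Groups of 3 libraries were too small for a check of single outlying samples.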

How the results depend on the processing

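Of the 43 calls on the 7 sterol genes, 29 kept their side of the threshold under every scaling, tool, filter, thinning, block and left-out gradient, 14 lost it at least once and 0 changed sign; of 77 values of other named genes, 52 kept theirs and 0 changed sign. The interaction calls were the least stable, with the cause not tested. A limit of 1 on the absolute log2 change lowered by construction most counts.

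That limit gave these counts of sterol genes higher and lower: 0 and 1 in each fraction of KO versus WT, 0 and 0 in the mean, 2 and 1 for high polysome over monosome in WT, 3 and 1 in KO, 0 and 1 for low polysome over monosome in each genotype, and 0 for each KO effect. For the other pathway genes it left 4 higher in monosomes, 7 in low polysomes, 3 in high polysomes and 5 in the mean, with 0 lower; 16 and 1 for high polysome over monosome in WT and 4 lower in KO; 2 higher in WT, and 5 and 1 in KO, for low polysome over monosome; and 0 for each KO effect.

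KO versus WT, the sterol genes higher in monosomes numbered 1 (Srebf2) with library size alone, edgeR, DESeq2, only the groups compared and equal depth. Sterol genes higher in high polysomes numbered 0 with no filter and at equal depth. Other genes lower numbered 5 in monosomes with no filter and 4 in low polysomes with only the groups compared. High polysome over monosome in KO, 1 sterol gene was lower with no filter, edgeR or the replicate block.

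KO effect on high polysome over monosome: sterol genes higher numbered 0 with DESeq2 size factors, library size alone, no filter, equal depth or the length trend removed, and 1 was lower with only the groups compared. Other genes higher numbered 4 with no filter and 2 without the length trend, and 3 were lower at equal depth. Library size alone moved the median of all genes from 0.022 to -0.102.

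KO effect on low polysome over monosome: sterol genes higher numbered 1 with library size alone and 0 with no filter, only the groups compared, equal depth or the length trend removed. Other genes higher numbered 3 with DESeq2 or the replicate block and 0 with library size alone, no filter, edgeR, only the groups compared, equal depth or the length trend removed.

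KO effect on high over low polysome: 1 sterol gene was lower with DESeq2 size factors, library size alone or DESeq2. Other genes higher numbered 1 with DESeq2 size factors, no filter, only the groups compared or equal depth, and 0 without the length trend. Other genes lower numbered 2 with DESeq2 size factors, library size alone or no filter, 3 with DESeq2, and 0 with edgeR, only the groups compared, the replicate block or the length trend removed.

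Leaving out 1 gradient gave, for sterol genes, 0 to 1 higher in monosomes, 0 to 1 higher and 1 to 3 lower in high polysomes, 1 to 2 higher in the mean, 0 to 2 lower for high polysome over monosome in KO, 0 to 3 higher (WT) and 2 to 4 higher (KO) for low polysome over monosome, 0 to 1 higher and 0 to 1 lower for the KO effects on both ratios to monosome, and 0 to 1 lower for high over low polysome. For other genes it gave 4 to 8 lower in low polysomes, 9 to 18 higher for low polysome over monosome in WT, 1 to 9 higher and 0 to 4 lower, 0 to 4 higher, and 0 to 3 higher and 0 to 6 lower for the 3 KO effects in the order above.

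Uncalled values near 0 changed sign. Fdft1 in high polysomes (0.01) was -0.07 with DESeq2 size factors, -0.05 with library size alone, -0.01 with no filter, -0.06 with DESeq2, -0.02 with only the groups compared, -0.06 at equal depth and -0.06 to 0.07 with a gradient left out. Lss was -0.05 in the mean and -0.08 for the KO effect on low polysome over monosome at equal depth (-0.06 to 0.40 with a gradient left out), and -0.24 to 0.13 in low polysomes. Sqle was -0.04 with library size alone, -0.03 with no filter and -0.06 without the length trend for the KO effect on high polysome over monosome, and with a gradient left out -0.04 to 0.20, -0.05 to 0.26 and -0.13 to 0.00 for the 3 effects. For low polysome over monosome in KO, Fdft1 was -0.06 at equal depth (-0.03 to 0.21 with a gradient left out) and Insig1 0.11 with edgeR, 0.12 with DESeq2, 0.02 with the block (-0.43 to 0.24). Srebf2 ran from -0.57 to 0.02 and from -0.12 to 0.52 for the first 2 effects, and Insig1, for the third, from -0.30 to 0.09, with 0.13 without the length trend.

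Pairing by replicate block changed no other call on a named gene than those of Lss above (-0.36, adjusted p = 0.0572) and of Fads1 for high over low polysome (-0.56, adjusted p = 0.0612); WT and KO of 1 number deviated together weakly or oppositely (-0.51 to 0.25). Idi1 had at most 11 counts in any library and did not pass the filter on low counts.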

Other observations

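The lists for lipid uptake, storage and fatty acids were described only in part above. Of 9 uptake and transport genes, 4 rose and 3 fell in Ddx6 KO as means of the fractions, and of 5 tested efflux and storage genes 2 rose and 0 fell. Over all tested genes 30.6% rose and 31.5% fell in this comparison, so the uptake and transport counts are near the background. Soat1, the acyltransferase that stores cholesterol as esters, rose in each fraction: 15.9, 11.4 and 18.4 CPM in WT monosomes against 30.6, 31.1 and 28.3 CPM in Ddx6 KO, and 26.7, 35.7 and 28.5 CPM in WT high polysomes against 92.1, 88.9 and 86.6 CPM. Ebp rose in each fraction too, from 112, 111 and 107 CPM to 211, 273 and 264 CPM in monosomes.

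All 9 fatty acid genes listed as SREBP targets had higher levels in high polysomes than in monosomes in Ddx6 KO cells and passed the test (background 35.0%), with a median log2 ratio of 1.28, and 7 of the 9 did in WT cells (background 28.9%), with a median of 0.74. Between genotypes 1 of the 9 rose and 3 fell as means of the fractions, against the same 30.6% and 31.5%. Scd1, a desaturase, fell in monosomes (-0.84) and low polysomes (-0.74), with adjusted p of 1.3e-05 and 2.31e-05 by limma-voom. Its high polysome levels were lower too, at 312, 277 and 269 CPM in WT and 206, 210 and 210 CPM in Ddx6 KO.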
